A study of Saccharomyces cerevisiae with 14 samples.

Results

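The transcripts of the 31 genes that encode the subunits of RNA polymerases I, II and III were followed in Saccharomyces cerevisiae as cells left growth and entered quiescence. The genes were taken by name from the 6598 genes of the table that had a usable name. Of the 31 genes, 7 encode subunits found only in RNA polymerase I, 7 only in RNA polymerase II and 10 only in RNA polymerase III, while 2 are shared by I and III and 5 are part of all 3 enzymes. All 31 had a row and a value in every condition, and all passed the filter on low values.

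The cells were of the W303 background, either wild type or delta-rpd3, which lacks the gene of the histone deacetylase Rpd3. Both genotypes were harvested at 3 stages. Log cells were in growth on glucose (OD600 of 0.4 to 0.6), DS cells (diauxic shift) had been without glucose for 2 hours, and Q cells (quiescent) were collected by Percoll gradient out of cultures 7 days old. The 14 strand-specific libraries came from 2 isolates of each of the 6 conditions, with ERCC spike-in RNA added at 1 equivalent; wild-type log cells had 4 libraries, since both isolates were also prepared with 0.2 equivalents. Only 1 value per condition was given, so no value below has a replicate error or a test, and the read depth is unknown. Values are FPKM (fragments per kilobase of transcript, relative to sequencing depth), which the authors set by the spike-ins to a scale of RNA per cell. In these bulk samples, fewer cells with a transcript and less transcript in every cell cannot be told apart.

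The labels were checked against 3 genes. RPD3 was at 70.8, 37.7 and 2.35 FPKM in wild-type log, DS and Q cells, had no value in mutant log cells, and was at 0.941 and 0.0279 FPKM in mutant DS and Q cells. PCK1, a gene of gluconeogenesis that glucose represses, went from 5.62 to 4142 FPKM between log and DS cells in wild type and from 4.67 to 5405 FPKM in the mutant. The stationary phase gene SPG4 was at 706 FPKM in wild-type and 1820 FPKM in mutant Q cells, against 2.59 and 2.83 FPKM in log cells. The per-cell scale moves almost every gene: the median gene with at least 1 FPKM in some condition was at 38.4, 20.5 and 1.39 FPKM in wild-type log, DS and Q cells and at 50.5, 34.3 and 19.1 FPKM in the mutant. Results are therefore given beside the same quantity over all genes, and ratios and ranks within a condition, which the scale cannot change, are given as well.

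RNA polymerase I transcribes the precursor of the large ribosomal RNAs, RNA polymerase II transcribes mRNA, and RNA polymerase III transcribes tRNAs and the smallest ribosomal RNA. Each enzyme has a pair of large subunits that form the active centre, a pair of subunits related to bacterial alpha, a stalk of a pair of subunits that binds emerging RNA, and common subunits. Polymerases I and III also hold built-in relatives of the general factors that RNA polymerase II recruits from outside. In yeast many genes of the subunits particular to I and III carry the PAC element, named after polymerases A and C, the older names of these enzymes, and the RRPE element, as do genes of ribosome biogenesis. The repressors Dot6 and Tod6 bind PAC and Stb3 binds RRPE, and under starvation they are known to recruit the Rpd3 deacetylase.

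The words of both elements were searched on both strands in the 250 bases before the start codon of each subunit gene, in the RefSeq R64 reference of strain S288C, to which all 31 genes were matched. The word for PAC was GATGAG and the word for the RRPE core was AAATTTT; an RRPE copy with an A added in front holds the word on both strands and overlaps itself. PAC was found at 6 of the 7 genes particular to polymerase I, 8 of the 10 particular to III and both genes shared by I and III. It was found at 0 of the 7 genes of polymerase II and 0 of the 5 common genes. Of 6001 promoters of protein-coding genes, 17% held the PAC word, 21.7% the RRPE word and 6.63% both. The RRPE word was at 6 of 7 genes of polymerase I, 8 of 10 of III, both shared by I and III, 4 of 5 common genes and 2 of 7 genes of II. Both words together were at 15 of the 31 genes. TATAAA, searched as a plain reference word, was at 15 of the 31 genes (48.4%) and at 43.4% of all promoters. A match is only a run of letters, and no binding was measured.

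The promoters below show genes with both words (RPA135, RPA49, RET1, RPC82 and RPC40), a gene of RNA polymerase II with the RRPE word alone (RPO21), and genes with neither word (RPA12 and RPB4). They run from 250 bases before to 50 bases after the first base of the start codon, 5′ to 3′ on the coding strand, from RefSeq build R64; capitals mark the PAC and RRPE words on either strand before the start codon.
RPA135, chr16:581147-581446, minus strand: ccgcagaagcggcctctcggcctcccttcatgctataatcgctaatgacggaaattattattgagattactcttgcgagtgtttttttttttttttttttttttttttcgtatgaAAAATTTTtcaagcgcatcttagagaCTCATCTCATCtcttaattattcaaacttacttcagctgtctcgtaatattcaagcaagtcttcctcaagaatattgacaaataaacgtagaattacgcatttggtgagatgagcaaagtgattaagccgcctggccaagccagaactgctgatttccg
RPA49, chr14:182559-182858, minus strand: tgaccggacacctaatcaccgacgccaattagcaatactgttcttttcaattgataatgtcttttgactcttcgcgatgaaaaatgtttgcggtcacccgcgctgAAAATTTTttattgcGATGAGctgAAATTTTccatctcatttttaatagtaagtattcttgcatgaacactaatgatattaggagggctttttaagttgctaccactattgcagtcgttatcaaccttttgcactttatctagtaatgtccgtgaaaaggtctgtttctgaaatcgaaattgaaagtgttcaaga
RET1, chr15:733408-733707, minus strand: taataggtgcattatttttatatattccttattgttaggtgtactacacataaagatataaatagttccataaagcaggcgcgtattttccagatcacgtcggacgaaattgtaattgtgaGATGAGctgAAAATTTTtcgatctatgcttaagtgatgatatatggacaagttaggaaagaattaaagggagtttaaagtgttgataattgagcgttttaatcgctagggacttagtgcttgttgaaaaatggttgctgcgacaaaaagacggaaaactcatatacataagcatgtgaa
RPC82, chr16:918992-919291, minus strand: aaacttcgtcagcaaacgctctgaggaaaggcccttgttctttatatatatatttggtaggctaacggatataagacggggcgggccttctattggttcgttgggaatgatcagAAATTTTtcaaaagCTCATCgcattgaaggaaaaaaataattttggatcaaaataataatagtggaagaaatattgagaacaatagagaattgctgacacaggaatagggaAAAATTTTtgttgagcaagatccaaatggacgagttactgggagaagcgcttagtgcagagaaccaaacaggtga
RPC40, chr16:746786-747085, minus strand: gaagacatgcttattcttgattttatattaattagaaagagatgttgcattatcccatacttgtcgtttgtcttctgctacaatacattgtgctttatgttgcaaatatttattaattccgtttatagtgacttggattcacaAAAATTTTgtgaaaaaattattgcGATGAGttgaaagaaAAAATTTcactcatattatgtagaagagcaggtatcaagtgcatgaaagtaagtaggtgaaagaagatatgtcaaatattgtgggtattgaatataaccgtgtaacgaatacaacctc
RPO21, chr4:210512-210811, minus strand: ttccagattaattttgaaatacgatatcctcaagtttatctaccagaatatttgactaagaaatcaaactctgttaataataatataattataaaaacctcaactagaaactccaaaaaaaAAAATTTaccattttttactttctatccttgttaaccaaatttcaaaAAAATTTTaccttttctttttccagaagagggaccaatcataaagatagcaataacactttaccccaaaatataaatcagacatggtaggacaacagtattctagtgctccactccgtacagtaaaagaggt
RPA12, chr10:554945-555244, plus strand: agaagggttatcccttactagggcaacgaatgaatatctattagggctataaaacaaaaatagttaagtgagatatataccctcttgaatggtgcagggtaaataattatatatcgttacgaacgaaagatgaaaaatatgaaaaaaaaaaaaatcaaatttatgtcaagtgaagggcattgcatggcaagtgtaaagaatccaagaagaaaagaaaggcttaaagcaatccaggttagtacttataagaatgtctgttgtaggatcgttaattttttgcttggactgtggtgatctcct
RPB4, chr10:150711-151010, plus strand: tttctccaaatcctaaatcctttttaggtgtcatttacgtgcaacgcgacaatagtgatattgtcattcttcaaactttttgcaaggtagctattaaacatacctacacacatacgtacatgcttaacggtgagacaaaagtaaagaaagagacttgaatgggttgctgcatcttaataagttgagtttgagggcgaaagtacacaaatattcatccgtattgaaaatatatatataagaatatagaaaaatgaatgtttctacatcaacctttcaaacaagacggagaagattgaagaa

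**Figure D1:**
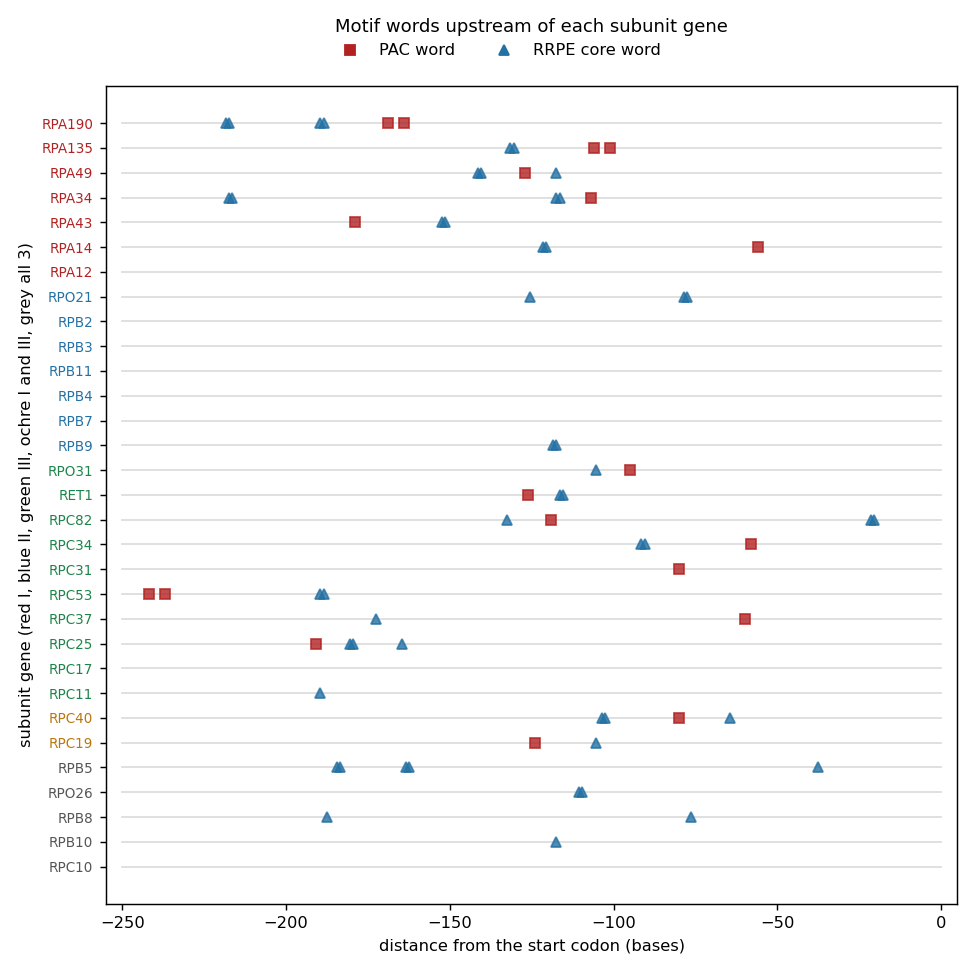
Position of the PAC word (squares) and the RRPE core word (triangles) in the 250 bases before the start codon of each of the 31 subunit genes; the axis is the distance from the start codon in bases, and overlapping words lie side by side. Squares appear at 16 genes, all of them of polymerase I, of polymerase III or shared by these.

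In growing wild-type cells the subunit transcripts were abundant. By class median the pair shared by I and III stood highest, followed by the common subunits and RNA polymerase I. The median of the 31 genes was 143 FPKM, at the percentile 83 of all genes of that condition. The common subunits RPO26 (also called Rpb6) and RPB8 were highest at 511 and 505 FPKM, followed by RPC40, the larger alpha-like subunit of I and III, at 462 FPKM. The active-centre subunits of polymerase I came next, RPA135 at 458 and RPA190 at 408 FPKM. Their counterparts were lower: RPB2 at 193 and RPO21 at 160 FPKM in polymerase II, RPO31 at 138 and RET1 at 134 FPKM in polymerase III. The lowest of all was RPC34, part of the TFIIE-like trimer of polymerase III, at 42.4 FPKM, and RPB3, the larger alpha-like subunit of polymerase II, stood at 43.6 FPKM against 125 FPKM for its partner RPB11. FPKM is per length, and these levels are set side by side on that basis. How well this scaling holds for the shortest genes, RPB10 and RPC10 at 213 bases, was not tested. The class medians were 206 FPKM for I, 142 for II, 85.5 for III, 359 for the pair shared by I and III and 305 for the common subunits.

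Wild-type cells were first compared before and after the loss of glucose. In DS cells transcripts of polymerase I were lower by the most, those of polymerase III and the common subunits by less, and those of polymerase II by the least. A change is given here and below as the difference of log2(FPKM + 1), and 30 of the 31 genes were at least 2-fold lower, against 44.2% of 6519 genes. The median change was -3.08, against -0.85 for all genes, and 30 of 31 lay below that median; the exception, RPB4, turned from -0.68 to 0.21 with every column centred on its median gene. By class the median was -4.58 for polymerase I, -3.94 for the pair shared by I and III, -3.25 for the common subunits, -2.76 for polymerase III and -1.64 for polymerase II. Of the 7 genes of polymerase I, 6 were lower than every gene of polymerase II; of the 10 genes of polymerase III, 7 were.

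Among the subunits of RNA polymerase I, RPA190 went from 408 to 21.1 FPKM between log and DS cells (-4.21) and RPA135 from 458 to 18.2 FPKM (-4.58). RPA49 and RPA34 form a TFIIF-like pair that helps the enzyme to leave the promoter and elongate. RPA49 went from 235 to 5.33 FPKM, the largest decrease of the 31 (-5.22), and RPA34 from 189 to 5.77 FPKM (-4.81). RPA12, which takes part in RNA cleavage and termination, was at 206 and 6.95 FPKM (-4.70). The stalk subunits parted: RPA43, which contacts the initiation factor Rrn3, went from 141 to 6.39 FPKM (-4.27), while RPA14 went from 148 to 29.3 FPKM (-2.29). RPA14 overlaps another gene of the reference on its own strand, so its value is uncertain.

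In RNA polymerase II, the large subunits RPO21 and RPB2 went from 160 to 63.2 FPKM (-1.33) and from 193 to 49.9 FPKM (-1.93). The stalk gene RPB4, which is needed for growth only under stress or at extreme temperatures, went from 143 to 88.4 FPKM (-0.68) and was the 1 gene of the 31 short of 2-fold. Its partner RPB7 went from 142 to 57.2 FPKM (-1.30). The alpha-like subunits RPB3 (-1.70) and RPB11 (-1.64) lay between these. RPB9, which acts in start-site choice and transcript fidelity, had the lowest change of this class, from 109 to 17 FPKM (-2.61).

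In RNA polymerase III the range was narrow, from -3.54 in RPC82 to -2.33 in RPC34, both members of the TFIIE-like trimer that opens the promoter. The large subunits RPO31 and RET1 went from 138 to 21.5 FPKM (-2.63) and from 134 to 14.9 FPKM (-3.08). The TFIIF-like pair RPC53 and RPC37 changed by -3.26 and -2.85, the stalk subunits RPC17 and RPC25 by -2.82 and -2.40, the third trimer member RPC31 by -2.70 and the cleavage subunit RPC11 by -2.41. The alpha-like pair shared with polymerase I, RPC40 and RPC19, went from 462 to 23.5 FPKM (-4.24) and from 257 to 19.8 FPKM (-3.63). Their median lay between those of I and III. The 5 common subunits moved almost as 1, from -3.47 in RPB8 to -3.15 in RPO26, and RPB5, RPB10 and RPC10 (also called Rpb12) were at -3.21, -3.32 and -3.25.

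**Figure D2:**
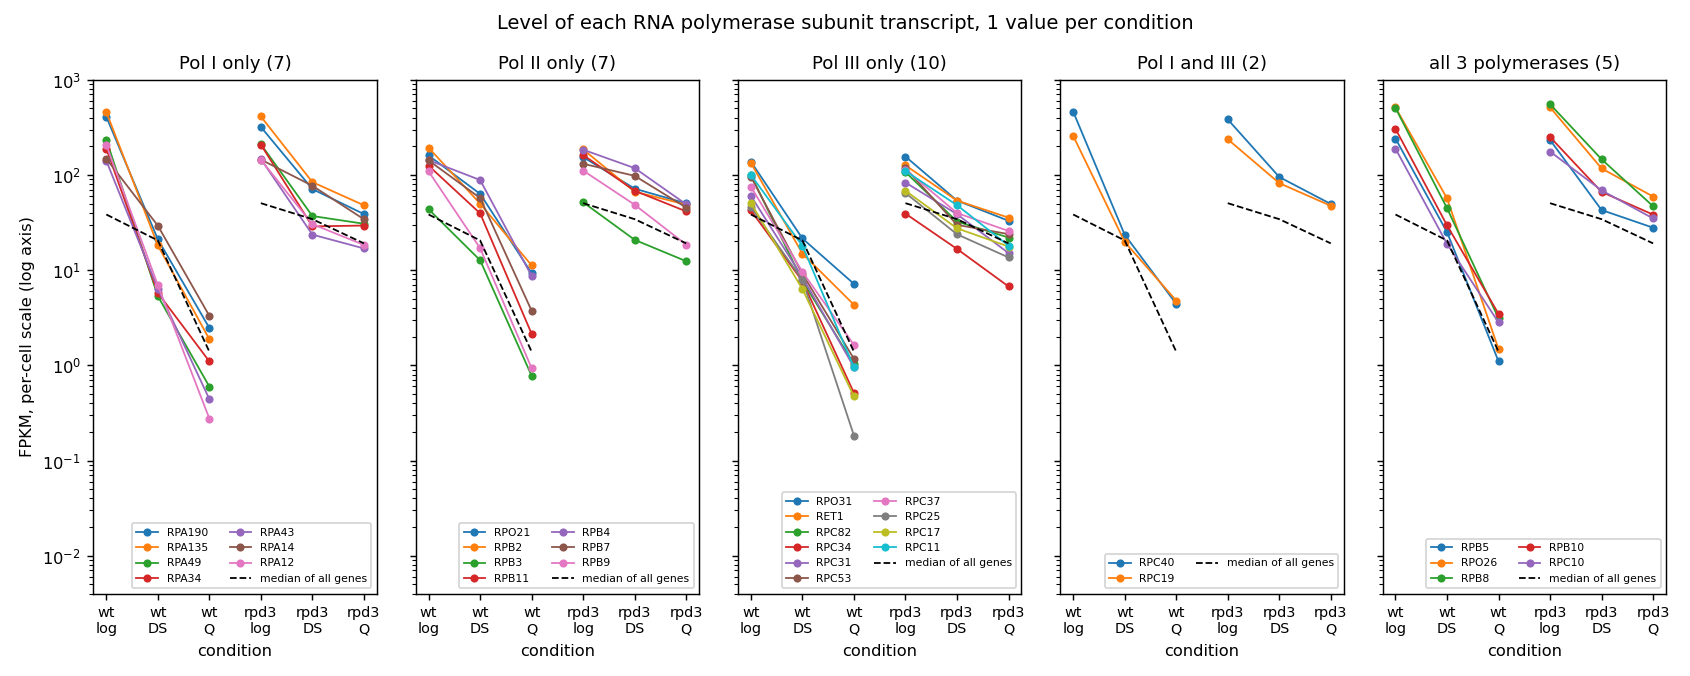
Level of each subunit transcript in FPKM on the per-cell scale (log axis) in the 6 conditions, in a panel per class, with 1 value per gene and condition and no error bars; the dashed line is the median of all genes. In wild-type DS cells 5 of the 7 genes of polymerase I lie below that line, whereas 5 of the 7 genes of polymerase II lie above it.

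Quiescent wild-type cells were then set against growing ones. All 31 genes were at least 2-fold lower, but so were 93.2% of 6425 genes, so this count says little about the subunits. The median change was -5.48 against -3.87 for all genes, and all 31 lay below the median of all genes. With centred columns 4 of them turned: RPO21 and RPB2 to 0.68, RPB4 to 0.74 and RPO31 to 0.52. Centring raised the Q values before 1 was added, so it also lessened the compression by the pseudocount. Where these 4 genes stand against all genes thus depends on the scale at which 1 is added. Class medians were -6.88 for polymerase I, -6.84 for the common subunits, -5.95 for the pair shared by I and III, -5.05 for polymerase III and -4.65 for polymerase II. This order depends on the pseudocount: with 10 in place of 1 the medians were -4.39, -4.55, -4.60, -2.99 and -3.26. The pseudocount of 1 limits these changes, because 10 of the 31 genes (32.3%) had less than 1 FPKM at that stage, against 41.7% of all genes.

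Few subunit transcripts were left at more than a few FPKM in wild-type Q cells. RPB2 at 11.2, RPO21 at 9.28, RPB4 at 8.67 and RPO31 at 7.17 FPKM were the highest, followed by RPC19 at 4.78 FPKM, RPC40 at 4.42 and RET1 at 4.33. At the other end were RPC25, the stalk subunit of polymerase III, at 0.183 FPKM, RPA12 at 0.276, RPA43 at 0.441, RPC17 at 0.472 and RPC34 at 0.513 FPKM. The active-centre genes of polymerase I were at 2.47 FPKM (RPA190, -6.88) and 1.88 FPKM (RPA135, -7.32), which is 0.604% and 0.411% of their log level. RPO26 went from 511 through 56.8 to 1.48 FPKM over the 3 stages (-7.69, 0.29% of its log level). On the scale with the pseudocount this is the largest change, but RPA12 (0.134%) and RPA49 (0.255%) kept less of their log level. Both were below 1 FPKM in Q cells, so these shares are uncertain. RPB4 changed least (-3.89).

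Between wild-type DS and Q cells all 31 genes were again at least 2-fold lower, as were 94.6% of 6420 genes. The median of -2.64 was above the -2.90 of all genes, and 21 of 31 genes lay above that median. The class medians were -2.01 for the pair shared by I and III, -2.25 for polymerase III, -2.64 for polymerase I, -3.21 for polymerase II and -3.48 for the common subunits. With a pseudocount of 10 the medians of these classes, listed as before, were -1.11, -0.76, -0.72, -1.92 and -1.66. The order thus depends on the pseudocount: polymerase I was then lowered least and polymerase II most. On the scale with a pseudocount of 1, which compresses changes of genes near 1 FPKM, the changes ran from -4.54 in RPO26 to -1.46 in RPO31. With centred columns the median of the 31 turned to 0.67 and 21 genes changed sign. By that measure 9 of 31 lay 2-fold or more above DS, against 23.6% of all genes, and 2 as far below, against 26.1%. The class medians turned as well, to 0.67 for I, 0.79 for III, 1.63 for the pair shared by I and III and 0.04 for the common subunits, while II stood at -0.05. Centring came before 1 was added, so it also altered the compression by the pseudocount. On the deposited scale the common subunits stood at -0.58 and II at -0.31 relative to the median of all genes.

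In growing cells the deletion of RPD3 left the subunit transcripts close to wild type. None of the 31 genes was at least 2-fold higher in mutant than in wild-type log cells, against 10.2% of 6479 genes, and none was at least 2-fold lower, against 3.38%. The median change was 0.01 (all genes 0.25; -0.39 with centred columns), from -0.52 in RPA12 (from 206 to 144 FPKM) to 0.60 in RPC37 (from 75.1 to 114 FPKM). Below the median of all genes lay 24 of the 31. Among them were all 7 genes of polymerase I (class median -0.15), both shared by I and III (-0.19) and all 5 common subunits (-0.05). The class median of polymerase III was 0.24 and that of polymerase II 0.02.

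In DS cells the genotypes parted, and they did so by class. All 7 genes of polymerase I, all 10 of polymerase III and both shared by I and III were at least 2-fold higher in the mutant, as were 4 of 5 common subunits and 1 of 7 genes of polymerase II. In all, 24 of 31 were, against 31.3% of 6394 genes. The median of the 31 was 1.61 (all genes 0.64), and the class medians were 1.98 for I, 1.99 for the pair shared by I and III, 1.70 for III, 1.14 for the common subunits and 0.67 for II. The last of these was close to the median of all genes and turned to -0.03 with centred columns. With centred columns 13 of 31 were past 2-fold, against 10.9% of all genes: 5 of polymerase I, 5 of polymerase III, both shared by I and III, and 1 common subunit.

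RPA49 had the largest difference in DS cells, from 5.33 FPKM in wild type to 37 FPKM in the mutant (2.59). RPA135 was at 18.2 and 84 FPKM (2.15), RPA190 at 21.1 and 71 FPKM (1.71) and RPA34 at 5.77 and 28.8 FPKM (2.14). The trimer subunit RPC31 of polymerase III was at 8.42 and 38.7 FPKM (2.07) and RET1 at 14.9 and 53.8 FPKM (1.79). RPC34, lowest of that class, was at 7.66 and 16.7 FPKM (1.03). By contrast RPO21 stood at 63.2 and 71.7 FPKM (0.18), RPB2 at 49.9 and 66.6 FPKM (0.41), and RPB4 at 88.4 and 118 FPKM (0.41). With centred columns these 3 turned to -0.56, -0.32 and -0.33. Of polymerase II only RPB9, at 17 and 48.6 FPKM (1.47), passed 2-fold. Among the common subunits RPC10 differed most (18.9 and 68.8 FPKM, 1.81) and RPB5 least (25.1 and 42.8 FPKM, 0.74).

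In Q cells all 31 genes were at least 2-fold higher in the mutant, as were 94.5% of 6419 genes. The median was 3.34 against 2.81 for all genes, and 25 of 31 genes lay above the median of all genes. Wild-type Q levels ran from 0.183 FPKM (RPC25) to 11.2 FPKM (RPB2) and mutant levels from 6.74 FPKM (RPC34) to 59.3 FPKM (RPO26). The differences ran from 2.03 in RPB2 (11.2 and 48.8 FPKM) and 2.06 in RPO31 (7.17 and 33 FPKM) to 4.31 in RPA49 (0.598 and 30.7 FPKM) and 4.60 in RPO26 (1.48 and 59.3 FPKM). The pseudocount sets this upper end: as plain ratios of FPKM, mutant over wild type was 74.6 in RPC25, 66.8 in RPA12, 51.4 in RPA49 and 39.9 in RPO26. The ratios of RPC25, RPA12 and RPA49 divide by wild-type values below 1 FPKM (0.183, 0.276 and 0.598). Their size and order are therefore uncertain. Class medians were 3.86 for I, 3.54 for the common subunits, 3.32 for III, 3.14 for the pair shared by I and III and 2.92 for II, and with a pseudocount of 10 they were 1.83, 1.84, 1.38, 2.00 and 1.64. On the deposited scale II stood 0.11 and the pair shared by I and III 0.33 above the median of all genes. With columns centred before 1 was added, which also alters the compression by the pseudocount, these class medians turned to -0.18 and -0.38, and 12 genes changed sign. Among these were RPB2 (-1.64), RPO31 (-1.56), RPO21 (-1.34), RPB4 (-1.27) and RET1 (-0.73). By that measure 6 of 31 lay 2-fold or more above wild type, against 22.5% of all genes, and 4 as far below, against 26.6%.

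Within the mutant the changes were smaller, with polymerase I again lowest and II again least changed at the diauxic shift. From log to DS cells 28 of 31 genes were at least 2-fold lower, against 28.6% of 6363 genes, with a median of -1.50 (all genes -0.52). The class medians were -2.28 for I, -1.91 for the common subunits, -1.76 for the pair shared by I and III, -1.34 for III and -1.17 for II. The genes short of 2-fold were the stalk subunits RPB7 (-0.42, turning to 0.14 with centred columns), RPB4 (-0.64) and RPA14 (-0.91), and RPA34 changed most (-2.80). From log to Q cells all 31 were at least 2-fold lower, against 64.9% of 6396 genes, with a median of -2.30 (all genes -1.39); RPB8 changed most (-3.53) and RPB7 least (-1.51). Between DS and Q cells 8 of 31 were at least 2-fold lower, against 40.6% of 6305 genes, with a median of -0.76 (all genes -0.81; 0.05 with centred columns). RPA34 was level over this step, at 28.8 and 29.4 FPKM.

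**Figure D3:**
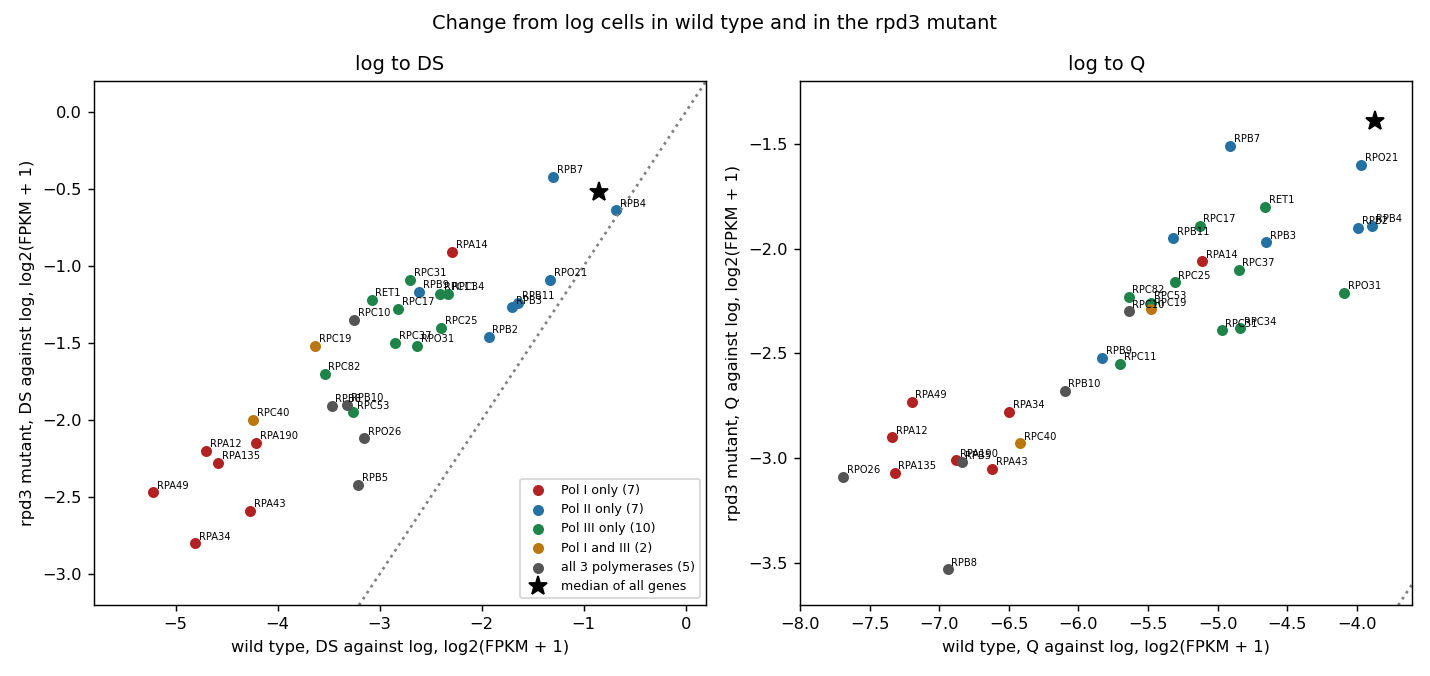
Change of each subunit transcript from log to DS cells (left) and from log to Q cells (right), as a difference of log2(FPKM + 1), with wild type on the horizontal and the rpd3 mutant on the vertical axis; the star is the median of all genes and the dotted line marks equal changes. All 31 genes lie above that line in both panels, and in the left panel the genes of polymerase I lie far from it while RPB4 (-0.68 and -0.64) and RPO21 (-1.33 and -1.09) lie near it.

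The difference between the genotypes in the change from log to DS cells puts both comparisons together, and uses the same 4 condition values. It was at least 2-fold in favour of the mutant in 23 of 31 genes, against 22.6% of 6363 genes, with a median of 1.42 (all genes 0.40). All 7 genes of polymerase I passed (class median 2.06, from 1.38 in RPA14 to 2.75 in RPA49), as did both shared by I and III (2.18), 9 of 10 of polymerase III (1.33), 4 of 5 common subunits (1.42) and 1 of 7 of polymerase II (0.43). RPC25, the gene of polymerase III just short of it, had 1.00 after rounding. For the change from log to Q cells the count was 31 of 31, against 91.6% of 6395 genes, with a median of 3.31 (all genes 2.52). The class median was 3.87 for I and 2.68 for II; with centred columns 6 genes changed sign, from RPO31 (-1.35) to RPC37 (-0.02).

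Ratios between the classes within a condition do not depend on the per-cell scale. The median FPKM of polymerase I subunits was 1.45 times that of polymerase II in wild-type log cells, 0.139 times in DS cells and 0.294 times in Q cells. In the mutant the ratios were 1.35, 0.543 and 0.677. For polymerase III over II they were 0.602, 0.176 and 0.265 in wild type and 0.708, 0.521 and 0.442 in the mutant. In both genotypes I stood above II in log cells and below it in DS and Q cells.

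Single pairs of homologous subunits were compared in the same way. RPA190 over RPO21 went from 2.55 to 0.333 in wild type and from 2.07 to 0.99 in the mutant, and RPA135 over RPB2 from 2.38 to 0.364 and from 2.23 to 1.26. In Q cells the wild-type ratios of these pairs were 0.266 and 0.168, against 0.773 and 0.984 in the mutant. RPO31 over RPO21 returned from 0.34 in DS to 0.773 in Q cells of the wild type, close to the 0.862 of log cells, whereas RET1 over RPB2 reached 0.388 only, against 0.694 in log cells. Ratios of stalk partners were followed in wild type as well: RPA14, whose value is uncertain, over RPA43 went from 1.05 through 4.59 to 7.52 (0.986, 3.26 and 2.03 in the mutant), and RPB4 over RPB7 was 1, 1.54 and 2.32 (1.41, 1.2 and 1.08 in the mutant). RPC17 over RPC25 was 1.1, 0.802 and 2.58 (1.06, 1.16 and 1.3 in the mutant). In wild-type Q cells RPA43 (0.441 FPKM), RPC17 (0.472) and RPC25 (0.183) were near the floor, so the ratios with them at that stage are uncertain.

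**Figure D4:**
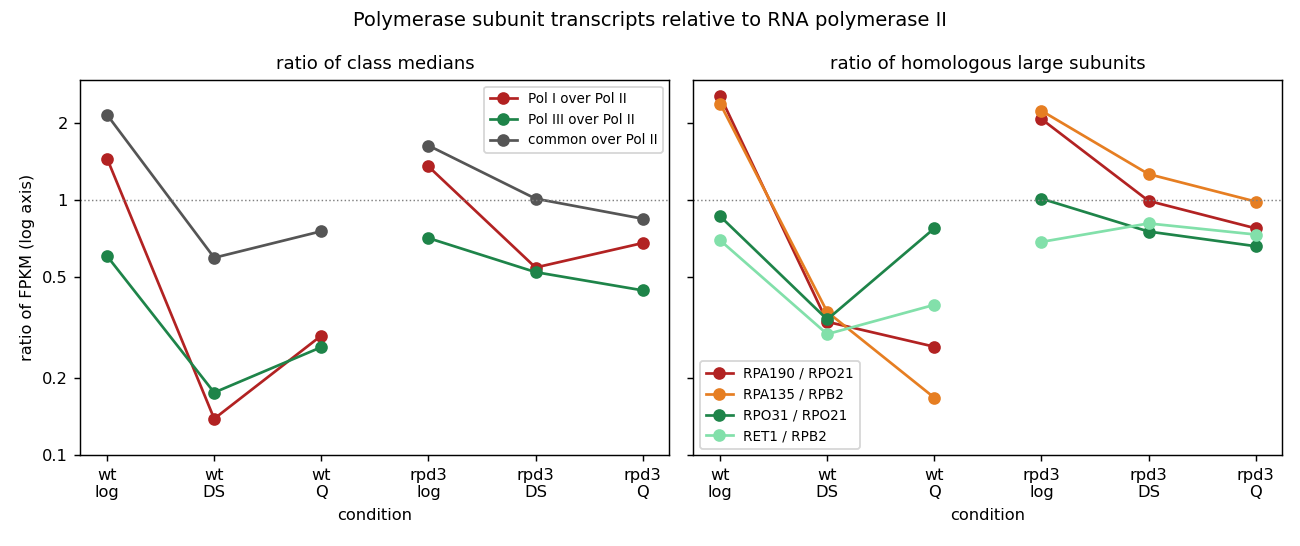
Ratio of median FPKM of each class to that of RNA polymerase II (left) and ratio of single homologous large subunits (right) in the 6 conditions, on a log axis, with 1 value per condition; the dotted line marks a ratio of 1. The ratio of I to II goes from 1.45 to 0.139 between wild-type log and DS cells, and from 1.35 to 0.543 in the mutant.

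Ranks among all genes of a condition show the same contrast free of the scale. The median percentile of polymerase I subunits was 87.6 in wild-type log, 17.7 in DS and 44.6 in Q cells, and 85.8, 53.4 and 70.3 in the mutant. That of polymerase II was 82.9, 74.7 and 73.9 in wild type and 80.7, 72 and 80.9 in the mutant, and that of polymerase III 73.1, 23.8 and 41.8 against 74, 51.5 and 52.4. RPO21 (84.9, 79 and 88.1), RPB2 (86.8, 74.7 and 90.1) and RPB4 (83, 84.4 and 87.4) stayed at or above the percentile 74.7 in all 3 stages of the wild type. RPO31 stood at 52.1 in DS cells and stood at 84.7 in Q cells, near its log rank of 82.5. RPA12 went from 87.6 to 17.7 and 14.5, the lowest rank of polymerase I in wild-type Q cells, and RPC25 from 56.3 to 20.5 and 9.42.

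**Figure D5:**
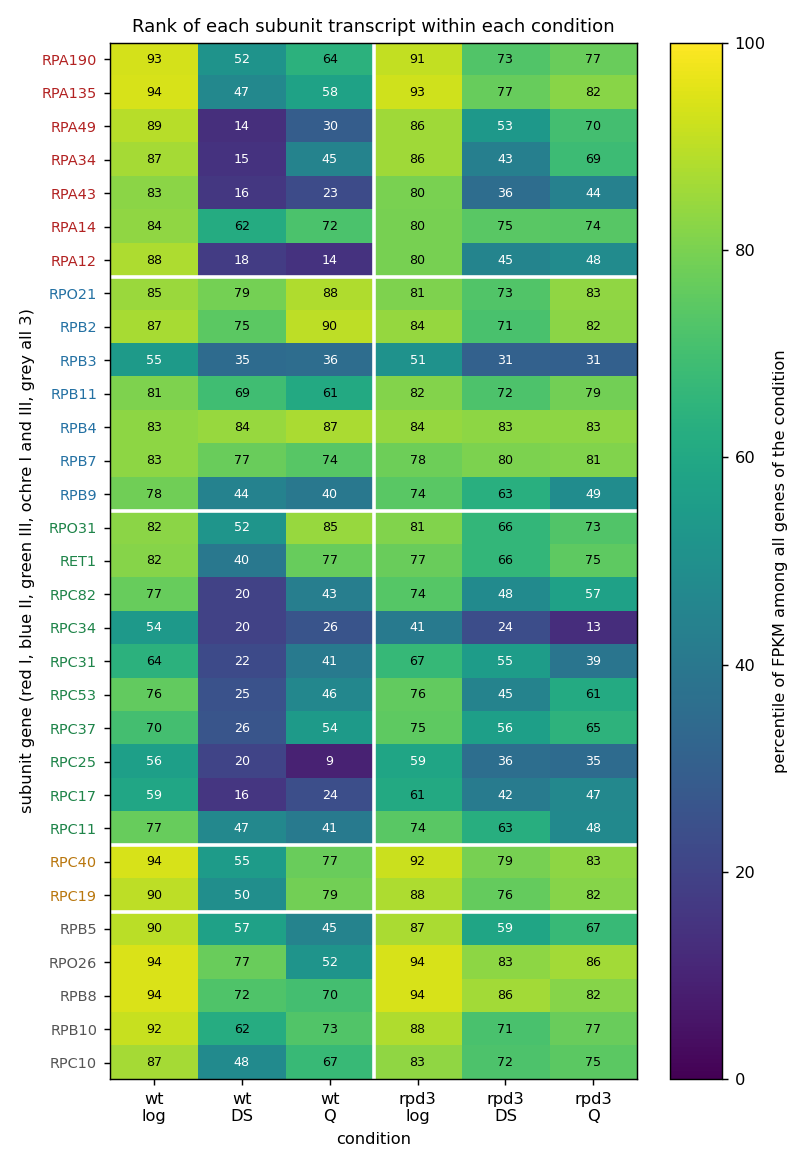
Percentile of each subunit transcript among all genes of the same condition (0 lowest, 100 highest), for 31 genes and 6 conditions, with the rounded percentile written in each cell. RPA49, RPA34, RPA43 and RPA12 lie between 13.5 and 17.7 in wild-type DS cells, while RPO21, RPB2, RPB4 and RPB7 lie between 74.7 and 84.4.

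Subunits of like structure were compared across the enzymes. In wild-type DS cells the TFIIF-like pairs RPA49 with RPA34 and RPC53 with RPC37 had a median change of -4.03. The common subunits had -3.25, the second-largest subunits -3.08, the TFIIE-like trimer -2.70, the alpha-like subunits -2.67 and the largest subunits -2.63. The cleavage subunits RPA12, RPB9 and RPC11 had -2.61 and the stalks -2.35. The TFIIF-like pairs include no gene of polymerase II, and the trimer is of polymerase III alone. Structure and enzyme class therefore cannot be told apart in these medians. The lowest value was that of RPA49 among the TFIIF-like subunits, RPA12 among the cleavage subunits, RPA43 among the stalks and RPC40 among the alpha-like subunits, all of them part of polymerase I.

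The promoter words can be set beside these values. The 16 genes with PAC had a median change of -3.40 from log to DS cells in wild type, from -5.22 in RPA49 to -2.29 in RPA14; the 15 without it had -2.61, from -4.70 in RPA12 to -0.68 in RPB4. Between genotypes in DS cells the medians were 1.86 with PAC (from 1.03 to 2.59) and 1.03 without (from 0.18 to 1.98). Over all genes the same medians were -1.37 with PAC (989 genes) and -0.79 without (4858 genes) for wild-type DS against log, and 1.03 and 0.59 for mutant against wild type in DS. Of polymerase I, RPA12, which held neither word in this window, changed by -4.70, and RPA14, which held both, changed least (-2.29). RPC17 of polymerase III, also with neither word, changed by -2.82. From log to Q cells the subunit genes with and without PAC had medians of -5.48 and -5.64 in wild type. Since PAC and the enzyme class go together, their parts in these differences cannot be told apart here.

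Genes that work with the polymerases were followed in lists written with earlier results of these data known. All 39 genes had a row, 3 of them under a systematic name. The counts that follow stand against the 44.2% of all genes that were at least 2-fold lower in wild-type DS than in log cells, with a median of -0.85. Of 9 initiation factors of RNA polymerase I, 6 were lower by that measure (median -1.67). RRN11 of the core factor changed most (21.9 to 2.44 FPKM, -2.73), and RRN7 of the same complex least (13.8 to 13.1 FPKM, -0.07). RRN3, which recruits the enzyme to the promoter, went from 58.7 to 12.1 FPKM (-2.19). Of 9 factors of RNA polymerase III, 3 were lower (median -0.90), from -2.14 in SPT15, the TATA-binding protein used by all 3 enzymes, to 0.57 in TFC3, the largest subunit of TFIIIC. Of 9 elongation factors of RNA polymerase II, 8 were lower (median -1.47), from SPT4 (-2.25) to PAF1 (-0.96). Of 6 genes for assembly and nuclear import, 5 were lower (median -1.73), from RBA50 (-2.73) to IWR1, an import adaptor of RNA polymerase II (0.49).

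In Q against log cells of the wild type these lists had medians of -4.26, -3.74, -4.41 and -3.98, around the -3.87 of all genes. SPT5, an elongation factor that binds polymerases I and II, stood out of its list at 52.4 FPKM in log, 22.7 in DS and 17.9 in Q cells (-1.50), as did TFC3 (13.9, 21.1 and 7.51 FPKM, -0.81) and IWR1 (22.1, 31.4 and 8.46 FPKM, -1.29). Between genotypes in DS cells 4 of 9 polymerase I factors, 0 of 9 polymerase III factors, 2 of 9 elongation factors and 5 of 6 assembly genes were at least 2-fold higher in the mutant, against 31.3% of all genes (medians 0.94, 0.76, 0.55 and 1.31; all genes 0.64). RRN11 (2.35) and RBA50 (1.51) had the largest differences of their lists.

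Regulators were listed with them. DOT6 and TOD6, the paralogous PAC-binding repressors, differed: DOT6 was at 26.9, 24 and 1.97 FPKM in wild-type log, DS and Q cells and TOD6 at 80.5, 8.28 and 2.46 FPKM. In the mutant DOT6 was at 35.8, 50.9 and 20.3 FPKM and TOD6 at 79.7, 32.8 and 43.7 FPKM. STB3, which binds RRPE, was at 25.6, 21.3 and 3.16 FPKM in wild type and 34.7, 27.2 and 28.1 FPKM in the mutant. MAF1, the repressor of RNA polymerase III, was at 52.9 and 46.8 FPKM in wild-type log and DS cells (-0.17), and SFP1, an activator of ribosome biogenesis genes, at 66.3 and 20.7 FPKM (-1.63). The kinase gene SCH9 was at 70 and 41.3 FPKM (-0.75). In wild-type DS against log cells 2 of these 6 genes were at least 2-fold lower, TOD6 (-3.14) and SFP1, against 44.2% of all genes.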

How the data were processed

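Strand-specific libraries of wild-type and delta-rpd3 yeast were made from RNA depleted of ribosomal RNA, with ERCC spike-in transcripts, per the labels' protocols. Per the submitters' processing notes, the tools were Cufflinks 2.2.1 with Cuffdiff, TopHat2, SAMtools and CASAVA; the sources used here give neither settings nor build nor annotation. The authors deposited log2 values of FPKM, scaled to RNA per cell (per the series' design text), with 1 value per condition; how isolates were combined is not stated. Base 2 was read from the values: FPKM times length in kilobases summed to 1295754 in wild-type log cells, against 31190804 with base e.

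Rows of repeated names (4) and 107 mutant DS values at the table's end, identical to the first mutant Q values, were left out; no subunit was among them. FPKM was restored with Python 3.11.15 and pandas 2.3.3, genes with at least 1 FPKM in a condition were kept (6524), and changes were differences of log2(FPKM + 1), which understates changes of low genes. No test was possible; genes past 2-fold were counted. The counting was checked for coding errors only, on simulated data with large known changes, no noise and no low values. All 31 members are described by class, with the large subunits and the extremes of each class named. Members, check genes and lists were chosen with earlier results of these data known. Alternatives were pseudocounts of 0.1 and 10, no filter, and columns centred on the median gene before the pseudocount was added. Promoters came from the RefSeq R64 annotation by gene name; the sequenced strain was W303.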

Additional observations from a re-analysis of the deposited data

How the results depend on the processing

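No paired analysis was possible because the table holds 1 value per condition and no isolate columns; for the same reason leaving out an isolate was not possible. Given here are the medians and counts over the 31 genes and the ratios to polymerase II that moved by more than 1.5-fold, and every change of at least 2-fold that turned. Of 396 changes of single genes and medians of classes, none moved that far without the filter, while 70, 171 and 239 moved without such a turn with a pseudocount of 0.1, a pseudocount of 10 and centring. A pseudocount of 10 gave a median of -2.47 for wild-type DS against log, -3.47 for Q against log and -1.17 for Q against DS, where 18 genes were 2-fold lower (65.1% of all genes). In the mutant 4 genes were 2-fold lower in Q than in DS (28.1%). The genotype medians were 1.66 in Q cells and 1.70 for the difference in the change to Q, and 14 genes passed 2-fold for the change to DS (11.7%). The ratios of I to II were 0.283 in wild-type DS and 0.808 in Q cells, and of III to II 0.313 and 0.8. A pseudocount of 0.1 gave -6.42 for wild-type Q against log.

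Columns centred on the median gene gave medians of -2.22 for wild-type DS against log, -1.66 for Q against log and 0.67 for Q against DS, where 2 genes were 2-fold lower (26.1% of all genes). For that last step the medians were 0.67 for polymerase I, 0.79 for III, 1.63 for the pair shared by I and III and 0.04 for the common subunits. In the mutant 13 genes were 2-fold lower in DS (13.3%) and 15 in Q than in log cells (19.4%), with a median of -0.93 for Q; Q against DS had 0 genes (15.9%) and a median of 0.05. Between genotypes the median was 0.93 with 13 genes 2-fold higher in DS (10.9%), and 0.19 with 6 genes in Q cells (22.5%), where polymerase II stood at -0.18 and the pair shared by I and III at -0.38. The difference in the change to Q had a median of 0.43 and 9 genes (26.8%).

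Centring turned 43 changes of single genes that were at least 2-fold, in 4 comparisons, and 38 smaller ones, of which 18 were in mutant Q against DS and 12 in mutant against wild type in log cells. For wild-type Q against log these were RPO21 (0.68), RPB2 (0.68), RPB4 (0.74) and RPO31 (0.52). For wild-type Q against DS they were RPA190 (0.77), RPA135 (0.59), RPA49 (0.67), RPA34 (1.41), RPA43 (0.02), RPA14 (0.73), RPO21 (1.11), RPB2 (1.71), RPB4 (0.53), RPO31 (2.27), RET1 (2.06), RPC82 (0.93), RPC31 (0.71), RPC53 (0.88), RPC37 (1.29), RPC17 (0.13), RPC40 (1.45), RPC19 (1.81), RPB8 (0.04), RPB10 (0.78) and RPC10 (1.12). For mutant against wild type in Q cells they were RPA14 (-0.41), RPO21 (-1.34), RPB2 (-1.64), RPB4 (-1.27), RPB7 (-0.18), RPO31 (-1.56), RET1 (-0.73), RPC34 (-0.06), RPC40 (-0.29), RPC19 (-0.47), RPB10 (-0.32) and RPC10 (-0.15). For the difference in the change to Q they were RPO21 (-0.89), RPB2 (-1.19), RPB4 (-1.25), RPO31 (-1.35), RET1 (-0.26) and RPC37 (-0.02). Centring removes the common shift of the per-cell scale by construction. It was done before 1 was added, so it also changed how far the pseudocount compressed low values. The median gene of wild-type Q cells, for instance, was raised from 1.39 to the 38.4 FPKM of log cells. A turned sign can therefore reflect the shift, the pseudocount or both. A larger pseudocount compresses low values. Depth is unknown, so how well values near or below 1 FPKM were measured could not be given, and without replicates no difference was set against the spread between isolates.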

Other observations

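Gene length went with the last step of the time course among the subunits, a pattern noticed in the data. Spearman's rho between gene length and the change from DS to Q cells was 0.49 in wild type and 0.50 in the mutant over the 31 genes, against 0.10 and 0.11 over 5891 and 5792 genes matched to the reference. The genes share their libraries and the FPKM length scaling, so rho is a description. The 6 genes longer than 3000 bases, RPA190, RPA135, RPO21, RPB2, RPO31 and RET1, are the active-centre subunits, so length and role cannot be told apart. Their changes in wild type ran from -2.74 to -1.46, and those of the other 25 from -4.54 to -1.69.

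Genes beyond the polymerases that carry both promoter words were lower at the diauxic shift as well. The 392 genes with PAC and RRPE before their start codon had a median change of -2.78 from log to DS cells in wild type, against -0.71 for 3975 genes with neither word. In the mutant the medians were -1.48 (388 genes) and -0.46 (3884 genes). The 15 subunit genes with both words are among them, and their median was -3.54 in wild type and -1.70 in the mutant. RPA190 and RPA43 are divergent neighbours on chromosome 15 and both hold both words. They changed by -4.21 and -4.27 from log to DS cells in wild type. Their promoter windows do not overlap. The 15 subunit genes with both words ran from -5.22 in RPA49 to -2.29 in RPA14, and RPA12, with neither word, changed by -4.70. Whether the shared position or the words play a part was not tested.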
